A study of Homo sapiens with 6 samples.

Results

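The basement membrane genes described here are 4 chains of collagen IV (COL4A1, COL4A2, COL4A5 and COL4A6), collagen XVIII (COL18A1), both nidogens (NID1 and NID2) and the heparan sulfate proteoglycans perlecan (HSPG2) and agrin (AGRN). They were chosen by gene symbol, with earlier results of these data known, and are 9 of the 22004 genes in the deposited table of read counts. All 9 had enough counts to be tested. The cells were H1299, a line from a human lung carcinoma of the non-small cell kind, which the labels call epithelial-like and wild type. They received 1.5 µM AVJ16, a small molecule described by the study as an inhibitor of the RNA-binding protein IGF2BP1, or the solvent DMSO, for 48 h. Each group held 3 libraries of poly(A) RNA, lettered A to C in the DMSO group and D to F in the AVJ16 group, and no other agent or allele set the groups apart. The comparison asked which RNAs stood at another steady-state level in treated cells. The study's methods speak of biological repeats and of RNA-seq in triplicate, while no label ties each library to a culture of its own. The spread that the p-values rest on is that between these libraries and may be partly technical.

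A basement membrane is a thin sheet of matrix on which epithelial and endothelial cells rest and which tumour cells have to cross to invade. Collagen IV chains wind into heterotrimers inside the cell and join outside it into a covalent network that gives the sheet its strength. Laminins form a second network at the cell surface, and nidogens, perlecan, agrin and collagen XVIII bind the networks to each other, to receptors and to growth factors. The genes of collagen IV lie in head-to-head pairs on opposite strands, with COL4A1 beside COL4A2 and COL4A6 beside COL4A5.

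The sequences upstream of the collagen IV pairs and of NID2 and HSPG2 are shown because the first 3 of these stretches belong to genes that fell with AVJ16 and the last to one that did not. They are from RefSeq, build GRCh38.p14, and RefSeq gave a window for 8 of the 9 genes. Capitals mark a GC box (GGGCGG or CCGCCC) or a CCAAT box (CCAAT or ATTGG), searched on both strands with overlapping matches counted. The stretch between the first bases of COL4A1 and COL4A2, at chr13:110307158-110307283 and read on the plus strand, is 126 bases long and 80.2% GC. The other windows hold the 250 bases before the first base of the gene. They are COL4A5 at chrX:108439588-108439837 (plus strand), NID2 at chr14:52069060-52069309 (minus strand) and HSPG2 at chr1:21937311-21937560 (minus strand).
COL4A1-COL4A2: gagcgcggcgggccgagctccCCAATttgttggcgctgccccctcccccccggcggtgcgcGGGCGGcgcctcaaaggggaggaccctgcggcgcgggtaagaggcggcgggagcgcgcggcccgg
COL4A5: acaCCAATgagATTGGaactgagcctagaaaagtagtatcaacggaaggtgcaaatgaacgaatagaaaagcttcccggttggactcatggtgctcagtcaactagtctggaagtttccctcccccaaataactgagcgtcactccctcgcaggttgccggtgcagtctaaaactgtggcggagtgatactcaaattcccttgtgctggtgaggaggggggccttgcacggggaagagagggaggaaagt
NID2: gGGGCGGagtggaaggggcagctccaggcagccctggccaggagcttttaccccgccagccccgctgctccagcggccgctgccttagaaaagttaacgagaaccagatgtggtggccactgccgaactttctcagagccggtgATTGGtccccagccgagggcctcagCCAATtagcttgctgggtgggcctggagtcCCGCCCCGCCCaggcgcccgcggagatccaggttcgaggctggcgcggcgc
HSPG2: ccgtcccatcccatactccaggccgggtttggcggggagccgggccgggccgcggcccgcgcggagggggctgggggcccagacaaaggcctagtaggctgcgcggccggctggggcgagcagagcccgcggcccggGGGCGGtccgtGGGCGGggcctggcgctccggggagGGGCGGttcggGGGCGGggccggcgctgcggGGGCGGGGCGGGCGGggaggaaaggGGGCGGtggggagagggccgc

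The shared stretch of COL4A1 and COL4A2 held 1 CCAAT box and 1 GC box. The COL4A5 window was 51.2% GC, held 2 CCAAT boxes and no GC box, and shared 121 bases with the COL4A6 window, which held 3 CCAAT boxes. NID2 had 2 CCAAT boxes and 3 GC boxes, and the NID1 window had 1 of each. The HSPG2 window was 82.8% GC with 8 GC boxes and no CCAAT box. The COL18A1 window before the first base of the annotated gene was 88.4% GC with 9 GC boxes and no CCAAT box. Which start these cells use was not tested. A further start of COL18A1 and one of COL4A6 had no CCAAT box and 1 GC box each. Of all 35116 windows of this length, 32% held a CCAAT box and 42.6% a GC box. A TATA box (TATAAA, 10.7% of windows) was found in the further COL18A1 window alone, and neither an AP-1 site (TGANTCA, 6.57% of windows) nor an E-box (CACGTG, 6.34% of windows) was found in a window of the 8 genes. Windows of a pair share bases, so their matches are not independent, and some annotated COL4A2 transcripts start inside COL4A1. A match is a description of the letters and was not tested for binding or for a link to the changes with AVJ16.

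AVJ16 lowered the RNAs of all 4 collagen IV chains and of both nidogens, whereas collagen XVIII, perlecan and agrin did not pass the test. In counts scaled to a library total of 1000000 (CPM, with TMM factors), 6 of the 9 genes were lower at an adjusted p under 0.05 and none was higher, in a fit where 8.77% of the 16330 genes tested were lower and 5.87% higher. Of the 6, 5 fell by at least 2-fold, as did 3.21% of all genes. In 7 of the 9 genes every AVJ16 library lay below every DMSO library, against 20.6% of all genes. The median log2 fold change of the 9 genes was -1.12, and that of all genes tested was -0.01. Because the genes were chosen with earlier results known, these shares describe the 9 genes and do not test them as a set. Library D stood apart from E and F in its share of mitochondrial RNA and by base composition, so results that rest on it are also given without it. Fewer cells that make a transcript and less of it per cell cannot be told apart in RNA from a whole culture.

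**Figure D1:**
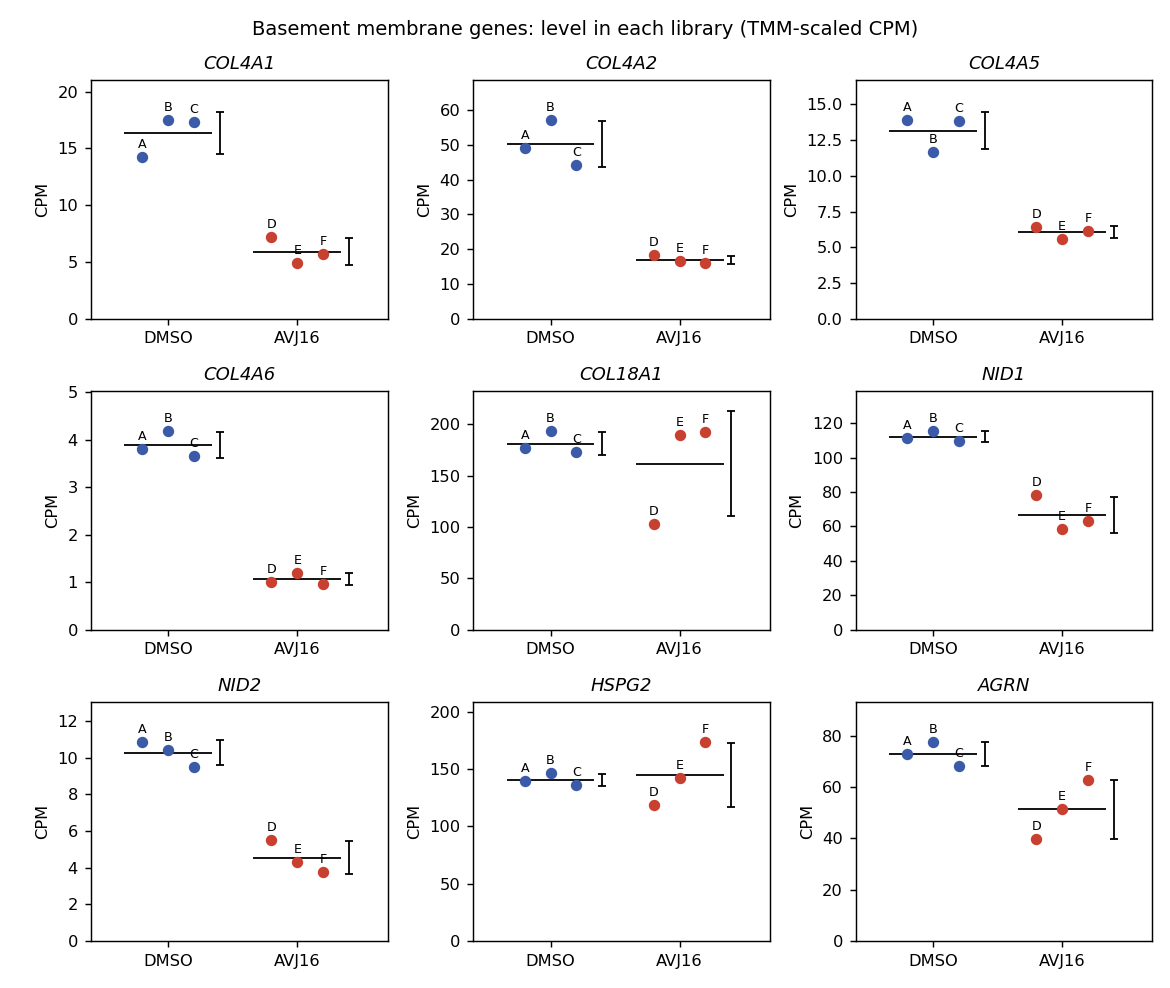
CPM of each of the 9 genes (vertical axes, each from 0) in the 3 DMSO libraries (blue, A to C) and the 3 AVJ16 libraries (red, D to F). Horizontal lines are group means and side bars 1 SD. The groups are apart in 7 panels and overlap for COL18A1 and HSPG2, where D is the lowest library.

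COL4A1 and COL4A2 encode the chains of the most widespread collagen IV network. COL4A1 (ENSG00000187498, chromosome 13, 110148963 to 110307157, minus strand) was at 14.2, 17.5 and 17.3 CPM in A, B and C and at 7.17, 4.86 and 5.66 CPM in D, E and F. The groups did not overlap, and the highest treated library stood well under the lowest control. The mean was 16.3 ± 1.84 CPM with DMSO and 5.90 ± 1.17 CPM with AVJ16 (SD, n = 3 each), a log2 fold change of -1.47 (SE 0.167, 95% interval -1.85 to -1.10, edgeR adjusted p = 0.00165).

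COL4A2 (ENSG00000134871, chromosome 13, 110305812 to 110513209, plus strand) was at 49.1, 57.3 and 44.1 CPM in the DMSO libraries and at 18.2, 16.5 and 15.9 CPM in the AVJ16 libraries. All 3 treated libraries lay close together, far below the controls. Its mean fell by 66.4% in the fit, from 50.1 ± 6.66 to 16.9 ± 1.18 CPM (log2 fold change -1.57, SE 0.130, 95% interval -1.87 to -1.28, edgeR adjusted p = 0.000716). By p it ranked 15 of the 16330 genes tested, the foremost place among the 9 genes.

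COL4A5 and COL4A6 encode chains of a collagen IV with a narrower distribution, found in skin, smooth muscle and kidney among other sites, and inherited changes of COL4A5 cause Alport syndrome. COL4A5 (ENSG00000188153, chromosome X, 108439838 to 108697545, plus strand) was at 13.9, 11.7 and 13.9 CPM with DMSO and at 6.40, 5.61 and 6.17 CPM with AVJ16. The treated libraries spanned less than 1 CPM and did not overlap the controls. The log2 fold change was -1.12 (SE 0.133, 95% interval -1.42 to -0.82, edgeR adjusted p = 0.00182), from 13.2 ± 1.28 to 6.06 ± 0.404 CPM.

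COL4A6 (ENSG00000197565, chromosome X, 108155607 to 108439497, minus strand) was the scarcest of the 9 transcripts, at 3.81, 4.19 and 3.66 CPM with DMSO and 1.01, 1.21 and 0.972 CPM with AVJ16. These values rest on 83, 126 and 75 reads in the control libraries and on 22, 29 and 29 reads in the treated ones. The groups were still well apart. COL4A6 showed the steepest fall of the 9 genes, with a log2 fold change of -1.88 (SE 0.181, 95% interval -2.29 to -1.47, edgeR adjusted p = 0.000938), and it was the 69th largest fall of all genes tested. The remaining chains of the family, COL4A3 and COL4A4, were too scarce to be tested, with 24 and 34 reads over all 6 libraries.

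Chains of a pair were then compared within each library, where scaling cancels. The log2 ratio of COL4A2 to COL4A1 was 1.79, 1.71 and 1.35 in A, B and C and 1.34, 1.76 and 1.49 in D, E and F. The groups overlapped, and the difference of means, -0.08, was smaller than either SD (0.233 and 0.213; two-sided exact permutation p = 0.7, adjusted over 3 ratios 0.7). The mean log2 ratio corresponded to a COL4A2 level 3.06 times that of COL4A1 with DMSO and 2.89 times with AVJ16. Divided by the kilobases of merged exon of all annotated transcripts, the ratio was 1.94 to 2.63 and 1.93 to 2.58 per library.

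The log2 ratio of COL4A6 to COL4A5 was -1.87, -1.48 and -1.92 in the control libraries and -2.67, -2.22 and -2.67 in the treated ones, so every AVJ16 library was below every DMSO library. The mean moved from -1.76 ± 0.243 to -2.52 ± 0.259 (SD, n = 3 each), a difference of -0.76 (two-sided exact permutation p = 0.1, adjusted 0.15). With 3 libraries against 3 the smallest p this test can give is 0.1, so the ratio could not pass.

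**Figure D2:**
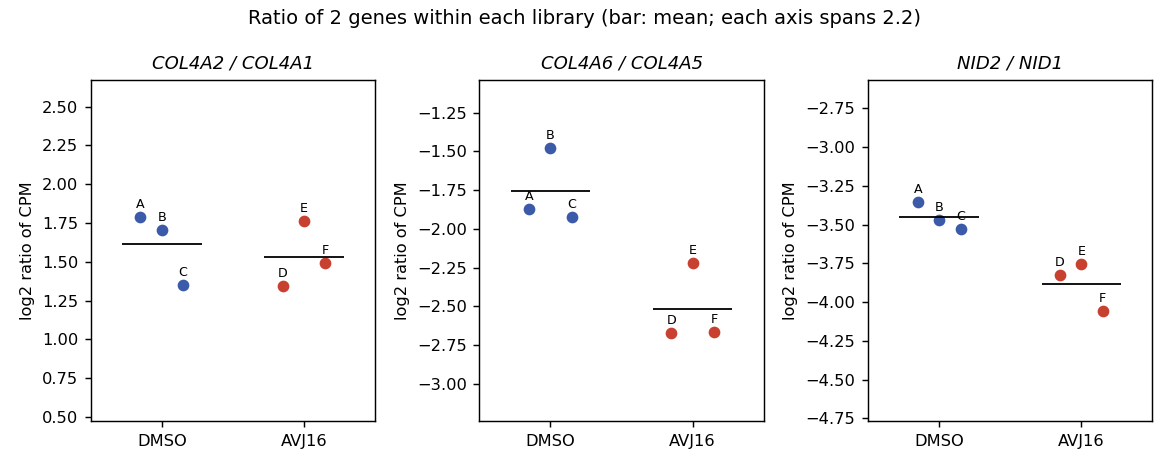
Log2 ratio of CPM between 2 genes within each library, for COL4A2 to COL4A1, COL4A6 to COL4A5 and NID2 to NID1, with DMSO libraries in blue, AVJ16 libraries in red and lines at the group means. All 3 vertical axes span the same log2 range. The groups overlap in the left panel and do not overlap in the other panels.

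Nidogens are rod-shaped glycoproteins that bind laminin and collagen IV and link their networks. NID1 (ENSG00000116962, chromosome 1, 235975830 to 236065109, minus strand) was at 111, 116 and 110 CPM with DMSO and at 78.4, 58.3 and 63.1 CPM with AVJ16. The controls agreed within a few CPM, and library D was the highest of the treated ones. Its mean fell by 40.6% in the fit (log2 fold change -0.75, SE 0.123, 95% interval -1.03 to -0.47, edgeR adjusted p = 0.00561).

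NID2 (ENSG00000087303, chromosome 14, 52004809 to 52069059, minus strand) was at 10.9, 10.4 and 9.52 CPM with DMSO and at 5.53, 4.32 and 3.79 CPM with AVJ16. Again the groups were apart and D was the highest treated library. The mean changed from 10.3 ± 0.688 to 4.55 ± 0.892 CPM, with a log2 fold change of -1.18 (SE 0.163, 95% interval -1.55 to -0.82, edgeR adjusted p = 0.00303). Exons of RTRAF on the opposite strand cover 30.7% of the exonic bases of NID2, and the sources used here do not say whether reads were counted by strand. RTRAF was at 121 to 126 CPM with DMSO and 136 to 163 CPM with AVJ16 (log2 fold change 0.27, edgeR adjusted p = 0.103). The part of this overlap in the NID2 values was not tested.

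The log2 ratio of NID2 to NID1 was -3.36, -3.47 and -3.53 with DMSO and -3.83, -3.76 and -4.06 with AVJ16. Every treated library was lower, by 0.43 on average (two-sided exact permutation p = 0.1, adjusted 0.15, with 0.1 again the smallest p possible). Per kilobase of exon, NID2 RNA stood at 0.0812 to 0.0912 of the NID1 level with DMSO and at 0.0561 to 0.0692 with AVJ16.

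Collagen XVIII carries heparan sulfate chains and releases endostatin, an inhibitor of vessel growth, from its end. COL18A1 (ENSG00000182871, chromosome 21, 45405165 to 45513720, plus strand) was at 177, 194 and 173 CPM with DMSO and at 103, 189 and 192 CPM with AVJ16. Library D alone was low, and E and F lay within the range of the controls. The log2 fold change was -0.16 (SE 0.210, 95% interval -0.64 to 0.31, edgeR adjusted p = 0.641), and without D it was 0.08 (adjusted p = 0.468). Exons of SLC19A1, a folate carrier gene on the opposite strand, cover 18.5% of the exonic bases of COL18A1. SLC19A1 was at 16.9 CPM in D, 28.3 to 32.0 CPM in E and F and 35.6 to 38.0 CPM with DMSO. The parts of this overlap and of base composition in the low COL18A1 value of D were not tested.

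Perlecan is a large heparan sulfate proteoglycan that binds growth factors and the other networks of the sheet. HSPG2 (ENSG00000142798, chromosome 1, 21822244 to 21937310, minus strand) was at 139, 146 and 136 CPM with DMSO and at 119, 143 and 174 CPM with AVJ16. The treated libraries lay on both sides of the controls. The log2 fold change was 0.04 (SE 0.137, 95% interval -0.26 to 0.35, edgeR adjusted p = 0.857), and 0.17 without D (adjusted p = 0.144). Exons of LDLRAD2 on the opposite strand cover 11.7% of its exonic bases, with LDLRAD2 itself at 0.146 to 0.838 CPM over the 6 libraries. The interval of HSPG2 excludes a fall as large as that of any collagen IV chain but not a modest change in either direction.

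Agrin, best known for the clustering of acetylcholine receptors at the neuromuscular junction, is also a basement membrane proteoglycan of epithelia. AGRN (ENSG00000188157, chromosome 1, 1020120 to 1056118, plus strand) was at 73.0, 77.6 and 68.3 CPM with DMSO and at 39.7, 51.6 and 62.8 CPM with AVJ16. Every treated library was below every control, but they were spread widely, with D the lowest. The log2 fold change of -0.51 (SE 0.159, 95% interval -0.86 to -0.15) did not pass over all genes (edgeR adjusted p = 0.0639). It passed without D (log2 fold change -0.35, adjusted p = 0.00985) and in 7 of 15 other settings in all.

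**Figure D3:**
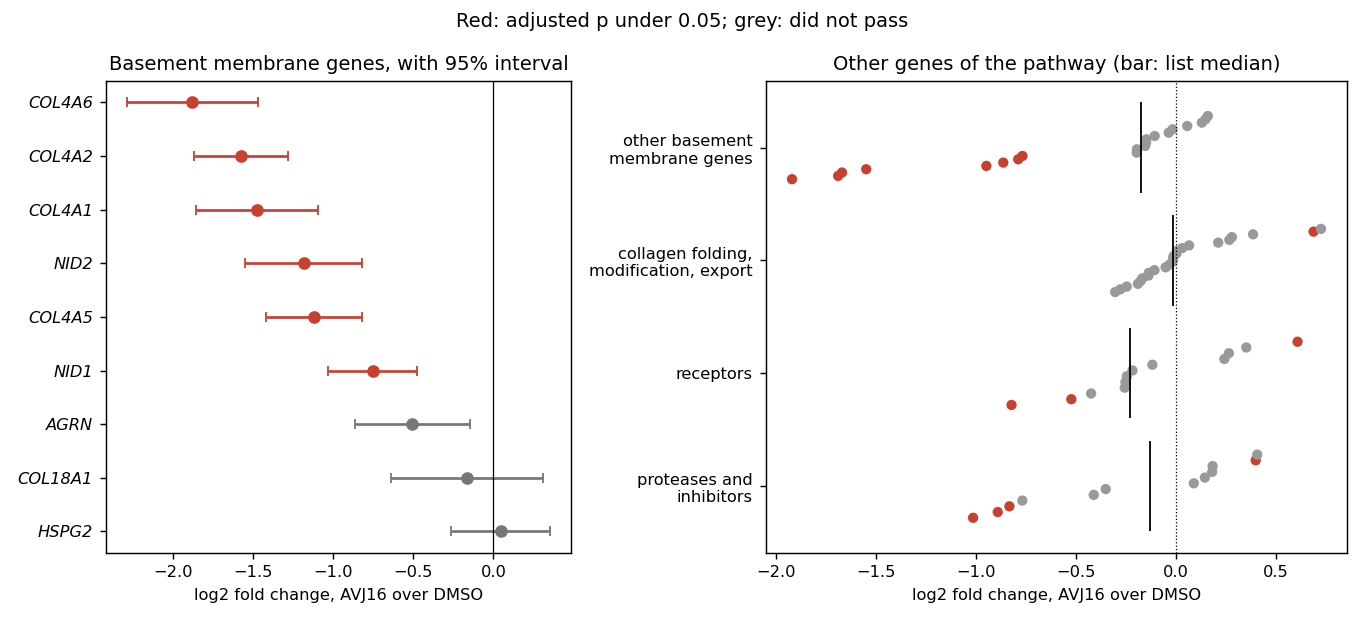
Left, log2 fold change of AVJ16 over DMSO for each of the 9 genes, with its 95% interval. Right, log2 fold change of every tested gene in 4 lists of related genes, with the list median as a bar. Red points passed an adjusted p of 0.05 and grey points did not, and the 4 collagen IV chains and both nidogens are the red points on the left.

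Library D deviated from E and F by base composition over all genes, and only some of the 9 genes deviated the same way. Mitochondrially encoded RNAs took 11.9% of its counts, against 5.13% to 6.66% in the other libraries, and the 6 libraries held 19353830 to 30253721 counts each. Over all genes tested, log2 CPM in D minus the mean of E and F had a median of 0.31 in the quintile of genes with the least GC in their longest transcript and of -0.42 in the quintile with the most (58.1% to 76% GC). COL18A1 (67.2% GC), HSPG2 (64.5%) and AGRN (67.9%) are in that last quintile, and D deviated there by -0.89, -0.41 and -0.52 on the log2 scale. COL4A2 (61.8%) is in the same quintile, but D deviated by 0.17. In the quintile of 51.4% to 58.1% GC, with a median of -0.18, NID1 deviated by 0.37, NID2 by 0.45 and COL4A1 by 0.45, all against the median, and COL4A6 by -0.11. COL4A5, at 50.8% GC in a quintile with a median of 0.01, deviated by 0.12. With the counts corrected for GC within each library, a correction added after the data were seen, log2 fold changes were -0.11 for COL18A1 (adjusted p = 0.397), 0.12 for HSPG2 (adjusted p = 0.375) and -0.42 for AGRN (adjusted p = 0.0144). Without D, the collagen IV chains fell by 1.15 (COL4A5) to 1.86 (COL4A6) on the log2 scale, NID1 fell by 0.89 and NID2 fell by 1.35, each past the threshold. The part of the mitochondrial share in these values was not tested.

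Gene length was a further property that the choice of genes did not use. In the quintile of genes with the longest span, 95 to 2300 kb, 17.8% of genes were lower with AVJ16, against 5.65% to 7.65% in the other quintiles. The 4 collagen IV genes span 158 to 284 kb and are in that quintile, and so are COL18A1 (109 kb) and HSPG2 (115 kb), which did not pass. NID1 and NID2 span 89.3 and 64.3 kb. The part of gene length in these changes was not tested.

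**Figure D4:**
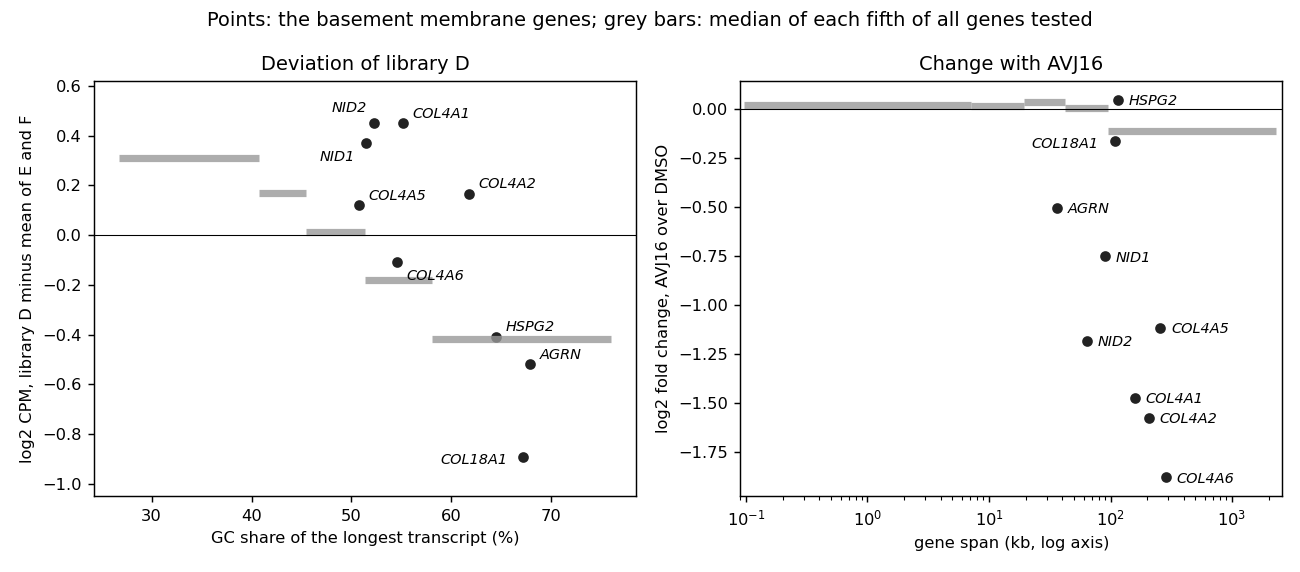
Left, log2 CPM of library D minus the mean of E and F against the GC share of the longest transcript. Right, log2 fold change of AVJ16 over DMSO against gene span on a log axis in kb. Points are the 9 genes and grey bars the medians of each quintile of all genes tested. HSPG2 and AGRN lie near the bar of the most GC-rich quintile at left and COL18A1 well below it, while the collagen IV chains lie far below the bar of the longest genes at right.

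Between genes, levels were compared as CPM per kilobase of merged exon. The merged exons pool all annotated transcripts, with 14662 bases for COL4A1, 19271 for COL4A2 and 6217 for NID2. The order therefore depends on the annotation, and by CPM with DMSO COL4A1 (16.3) stood above NID2 (10.3). With DMSO, COL18A1 was the most abundant of the 9 at 21.4 ± 1.30 CPM per kb (SD, n = 3), followed by NID1 at 19.3 ± 0.531, HSPG2 at 7.76 ± 0.294 and AGRN at 6.78 ± 0.432. COL4A2 stood at 2.60 ± 0.345 CPM per kb, NID2 at 1.65 ± 0.111, COL4A1 at 1.12 ± 0.126, COL4A5 at 1.11 ± 0.108 and COL4A6 at 0.419 ± 0.0296. Among neighbours in this order, the libraries of COL4A1 and COL4A5 overlapped and those of every other adjacent pair did not. The genes that fell at least 2-fold were thus the 5 scarcest in control cells. With AVJ16, COL18A1 stood at 19.1 ± 6.01 CPM per kb and NID1 at 11.5 ± 1.81, whereas COL4A2 was at 0.875 ± 0.0610 and COL4A6 at 0.114 ± 0.0136.

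For each collagen IV chain, the genes with the nearest pattern were sought among 11220 genes, namely those that averaged 5 CPM or more, with COL4A6, which averaged less, added for its rank, by the root mean square difference of log2 CPM relative to the DMSO mean over the 6 libraries. Nearest to COL4A1 were SLIT2 (0.0693), a secreted guidance protein, and LAMA1 (0.0946), a laminin chain. COL4A2 ranked 27 from COL4A1 (0.192), and COL4A1 ranked 16 from COL4A2. The nearest genes to COL4A2 were SLC6A9 (0.0645), a glycine transporter, ZBED6CL (0.0829) and NTN1 (0.104), the guidance protein netrin. COL4A5 was nearest to PCDH9 (0.0869), a protocadherin, C14orf132 (0.0884) and PGAP4 (0.0963), while COL4A6, the other gene of its pair, ranked 1489 (0.576). COL4A6 was nearest to SLC1A3 (0.136), a glutamate transporter, EMILIN3 (0.175) and GPC3 (0.188), a glypican. COL4A5 ranked 98 from COL4A6, at the same distance of 0.576. These distances describe 6 libraries that share one treatment contrast, and any gene that fell by a like amount scores as near.

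Of 24 other basement membrane components, 20 were tested, and 8 were lower and none higher with AVJ16. The median log2 fold change was -0.17. Over all genes tested, 8.77% were lower and 5.87% higher. Of the 8, LAMA1, LAMA2, LAMA3, LAMA4, HMCN1, FRAS1 and FREM2 span 95 kb or more, and SPARC spans 25.9 kb. In the quintile of the longest genes, 17.8% were lower. LAMC1, NTN4, FBLN1, FREM1 and PXDN are also in that quintile and did not pass. The part of gene length was not tested. LAMA4, a laminin chain common in vessels, was at 13.5 to 14.6 CPM with DMSO and 3.49 to 5.39 CPM with AVJ16 (log2 fold change -1.69, edgeR adjusted p = 0.00102). LAMA1, the chain of the earliest embryonic laminin, with 11.1% of its exonic bases under opposite-strand exons, changed by -1.55 (adjusted p = 0.00148), and FRAS1, which holds epidermis to dermis, by -1.67 (adjusted p = 0.00207). SPARC, a secreted protein that binds collagen IV, went from 21.3 to 22.1 CPM to 10.9 to 12.4 CPM (log2 fold change -0.86, adjusted p = 0.00236).

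Of 24 genes for collagen folding, modification and export, all tested, none was lower and 1 was higher, against 8.77% and 5.87% of all genes. The list had a median of -0.02. The gene that rose was LOXL2, a lysyl oxidase that crosslinks collagen IV, from 162 to 176 CPM with DMSO to 249 to 293 CPM with AVJ16 (log2 fold change 0.69, SE 0.101, edgeR adjusted p = 0.00386). The next smallest p-values belonged to MIA2, a collagen export receptor (0.39, adjusted p = 0.0714), P4HA3, a prolyl hydroxylase subunit (0.73, adjusted p = 0.0719), and CRTAP, a partner of prolyl hydroxylation (0.28, adjusted p = 0.101), none of which passed. Without D all 3 passed, with log2 fold changes of 0.29, 0.81 and 0.21 (adjusted p = 0.0272, 0.0220 and 0.0469), as they did under voom and the GC correction.

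Among receptors of basement membrane proteins, 2 of 12 tested were lower and 1 was higher, with a median of -0.23. The shares of all genes were 8.77% lower and 5.87% higher. DDR2, a collagen-binding tyrosine kinase, was at 48.2 to 51.5 CPM with DMSO and 22.9 to 37.9 CPM with AVJ16 (log2 fold change -0.82, edgeR adjusted p = 0.0215). LRP4, the agrin receptor, changed by -0.52 (adjusted p = 0.0220), and ITGA6, a laminin-binding integrin subunit, by 0.61 (adjusted p = 0.0411), with D the highest library at 725 CPM. Without D, ITGA6 stood at 0.39 (adjusted p = 0.00330), DDR2 at -1.10 (adjusted p = 6.82e-07) and LRP4 at -0.50 (adjusted p = 0.0034). DAG1, the dystroglycan that binds laminin, agrin and perlecan, was at -0.26 and did not pass (adjusted p = 0.0849), but it passed without D (-0.29, adjusted p = 0.00777), with library size alone and under voom. The calls of DDR2 and LRP4 were lost without any one of A, B, C, E and F (adjusted p up to 0.104 and 0.126), and that of ITGA6 without any one of A, B, C and F and with library size alone (adjusted p up to 0.137).

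Of 12 proteases and inhibitors tested, 3 were lower and 1 higher, against 8.77% and 5.87% of all genes. The median was -0.13. ADAMTS1, a secreted protease, changed by -0.89 on the log2 scale (edgeR adjusted p = 0.00165). MMP2, a gelatinase that cleaves collagen IV, changed by -0.83 (adjusted p = 0.00456), and TIMP3, a matrix-bound inhibitor of such proteases, by -1.01 (adjusted p = 0.00559). MMP14, which activates MMP2 at the cell surface, rose from 66.5 to 80.5 CPM to 92.3 to 99.8 CPM (log2 fold change 0.40, adjusted p = 0.0356), a call lost with library size alone and without any one of A, C, E and F (adjusted p up to 0.170).

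The cells were checked against markers of their label and of cells that also make basement membrane. Of 4 epithelial markers, 1 was lower and none higher, against 8.77% and 5.87% of all genes. KRT8 and KRT18, simple epithelial keratins, were at 289 to 333 and 450 to 518 CPM with DMSO and at 321 to 436 and 406 to 655 CPM with AVJ16, and neither passed (edgeR adjusted p = 0.113 and 0.583). EPCAM, an epithelial adhesion molecule, stayed between 0.299 and 0.594 CPM in all 6 libraries. The epithelial cadherin CDH1 was low and fell, from 1.28 to 1.60 CPM with DMSO to 0.0831 to 0.436 CPM with AVJ16 (log2 fold change -2.53, SE 0.396, adjusted p = 0.00478). The call of CDH1 rests on few reads in the treated libraries and was not followed in the other settings. The part of CDH1 in the changes of the basement membrane genes was not tested. The alveolar regulator NKX2-1 was at 0.596 to 1.02 CPM with DMSO and 0.731 to 0.914 CPM with AVJ16. Endothelial markers summed to 0.299 to 0.439 CPM with DMSO and 0.365 to 0.665 CPM with AVJ16, and fibroblast markers to 1.56 to 2.00 CPM and 1.27 to 1.45 CPM. Of the leukocyte markers, CD68 was at 0.488 to 1.24 CPM with DMSO and 1.05 to 2.74 CPM with AVJ16. It did not pass (log2 fold change 1.27, edgeR adjusted p = 0.0719), and CD14 had 14 reads over all libraries. The markers SFTPC, TEK, PTPRC and CD3E, and COL15A1 and MUSK of the gene lists, were not found by symbol in the filtered table of counts.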

How the data were processed

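Per the labels and the methods, the authors sequenced poly(A) RNA from a stranded KAPA kit as single-end reads, trimmed them with cutadapt 2.10, aligned them to GRCh38 with TopHat2 2.1.1 and counted genes with HTSeq 2.01. The deposited table held raw counts per gene for 6 libraries and 6 columns of counts that the authors normalised with DESeq2 1.36.0, which were not used, as were the authors' fold changes and p-values. Every gene had at least 10 counts over the 6 libraries, so the table had been filtered. Columns are lettered A to F. Their groups were read from the group bar above the study's heat map, and replicate numbers could not be assigned.

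Counts were tested with edgeR 4.0.16 (R 4.3.3): filterByExpr (minimum count 10, minimum total 15), TMM scaling and a two-sided quasi-likelihood F test with robust dispersion on all 16330 genes, with Benjamini-Hochberg adjustment over all of them and a threshold of 0.05. Intervals are at 95%, and fold changes used a prior count of 0.125. Alternatives were other scalings, no filter, DESeq2 1.42.0, limma 3.58.1 voom with sample weights, edgeR's legacy fit, leaving out each library, and a GC correction (lowess span 0.3) added after seeing the data. The edgeR, DESeq2 and voom fits were run on simulated counts in which no library was made to deviate as D does. The GC correction was run on simulated counts with a GC trend put into D. These runs do not test the calls given here. Annotation was GENCODE 44. The lists and genes were chosen with earlier results of these data known. Named genes are the 9 described, up to 4 per list with the smallest p, and 3 nearest patterns per collagen IV chain, 1 of which is not reported here, and SLC19A1, RTRAF, LDLRAD2, COL4A3, COL4A4 and the markers were named beside them for overlaps, family and cell type.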

Additional observations from a re-analysis of the deposited data

How the results depend on the processing

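The 6 falls kept their direction and passed the threshold in all 15 alternatives fitted across genes, with adjusted p up to 0.0173 for COL4A1, 0.0108 for COL4A2, 0.0177 for COL4A5, 0.0120 for COL4A6, 0.0460 for NID1 and 0.0246 for NID2. The number of lower genes among the 9 was 7 where AGRN passed, in 7 settings: library size alone, both DESeq2 fits, voom, without D, without F and the GC correction. HSPG2 changed sign with library size alone (-0.061), and ranged from -0.088 to 0.17 with single libraries left out. COL18A1 turned to 0.056 under voom and ranged from -0.294 to 0.075 with single libraries left out. Neither passed in any setting. The difference in the log2 ratio of COL4A2 to COL4A1 ranged from -0.216 to 0.011 with single libraries left out, while those of COL4A6 to COL4A5 (-0.91 to -0.62) and NID2 to NID1 (-0.49 to -0.34) kept their sign. Over all genes the count of calls, 2390, was 7136 under voom, 4146 with the GC correction and 824 to 6251 with single libraries left out, 6251 being without D; the cause was not tested. With library size alone the calls were 2219 lower and 523 higher, against 1432 and 958, and the median of all genes moved to -0.12. Of 23 other named genes past the threshold, 19 passed in every alternative, and the 4 below it (MIA2, P4HA3, CRTAP and DAG1) each passed in some. No paired analysis was possible because the columns carry letters and not the replicate numbers of the labels. COL4A6 rests on fewer reads than the other 8 genes.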

Other observations

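Of 4 genes that mark a mesenchymal state, 1 was lower and 1 higher with AVJ16, against 8.77% and 5.87% of all genes. FN1, fibronectin, was at 37.3 ± 1.05 CPM with DMSO and 23.3 ± 4.35 CPM with AVJ16 (SD, n = 3 each; log2 fold change -0.68, edgeR adjusted p = 0.0150). VIM, an intermediate filament protein of mesenchymal cells, was at 5362 to 6221 CPM and 7436 to 7571 CPM (0.39, adjusted p = 0.0449). CDH2, the neural cadherin (-0.21, adjusted p = 0.391), and ZEB1, a transcription factor (0.31, adjusted p = 0.321), did not pass.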
